A study of Mus musculus with 8 samples.

Results

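The 37 genes described here encode proteins of the lysosome: soluble hydrolases, their activator proteins, and proteins of the lysosomal membrane. They were chosen by gene symbol, and all 37 were found among the 24537 genes of the count table, and all 37 passed the filter on low counts that left 14711 genes for testing. RNA was taken from EpCAM+ cells of pancreatic tumours in FVB/NJ mice, collected with a flow cytometry sorter. The mice carry Pdx1-Cre, a luciferase reporter in Rosa26 that Cre switches on, and tumour-driving alleles that Cre recombines. Pdx1-Cre acts in the pancreatic lineage, so acinar, duct and tumour cells can all carry the recombined alleles, whereas immune cells of the host are not targeted by it. Treatment began at an age of 42 to 43 days, and every mouse had 50 mg/kg gemcitabine on days 1 and 4. As labelled, the arms differ only in the antibody, given at 25 mg/kg on days 1, 3 and 5, which was control IgG in 4 mice and a neutralising antibody against the cytokine LIF in 4 mice. Tumours were dissected on day 6, at about 48 days of age, and each library is 1 tumour. No group without gemcitabine is analysed here, so the question asked of each gene is what neutralising LIF changed on top of gemcitabine.

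Lysosomes are acidic organelles in which proteins, glycolipids, glycosaminoglycans, glycogen and cholesterol esters are taken apart. The enzymes are made in the endoplasmic reticulum, most of them are tagged with mannose phosphate and delivered by its receptors, and the membrane proteins keep the lumen acidic, carry products out and shield the cytosol. Genes of the lysosome share a regulatory element, bound by the transcription factor TFEB and its relatives TFE3 and MITF, whose core is an E-box. Macrophages, which digest what they engulf, are rich in lysosomes, and in pancreatic cancer cells lysosomes are known for recycling nutrients through autophagy.

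The core of this element, CACGTG, was looked for in RefSeq promoter windows of the members, which run from 250 bases before to 50 bases after the first transcribed base (assembly GRCm38.p6, reference strain and not FVB/NJ). Windows were found for 34 of the 37 members, 38 windows in all. Asah1, Galns and Npc1 had none. CACGTG reads the same on both strands, and it occurred in the windows of 8 of 34 members (23.5%), against 11.2% of 11240 tested genes with a window. The longer form GTCACGTG, searched on both strands and containing CACGTG, occurred in 7 members (20.6%), against 4.37% of the tested genes. By window, the shares for CACGTG were 21.1% of the members' windows and 9.39% of the 14267 windows of tested genes, and for GTCACGTG 18.4% and 3.71%. Over all 32851 windows of the table they were 7.15% and 2.25%. GTCACGTG followed by AC, the full palindrome, was in the windows of 0 members and of 0.73% of tested genes. Of the 83 genes with a window on the other lysosome lists described below, 27.7% held CACGTG, 19.3% GTCACGTG and 4.82% the full palindrome. The higher shares of the 2 shorter forms are thus not particular to the members. The stretches below run from 20 bases before the first CACGTG to the last base before transcription starts, with each CACGTG in capitals. They show the gene with the most matches (Lamp1), the gene with the longer form at both of its matches (Mcoln1), and the 3 members with a match whose transcripts rose (Glb1, Arsa and Gaa).
Lamp1: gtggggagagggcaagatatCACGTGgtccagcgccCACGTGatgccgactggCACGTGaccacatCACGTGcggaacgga
Mcoln1: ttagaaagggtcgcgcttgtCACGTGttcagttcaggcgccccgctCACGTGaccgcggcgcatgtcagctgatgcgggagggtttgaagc
Glb1: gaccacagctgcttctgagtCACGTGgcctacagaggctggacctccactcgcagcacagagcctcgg
Arsa: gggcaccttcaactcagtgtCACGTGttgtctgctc
Gaa: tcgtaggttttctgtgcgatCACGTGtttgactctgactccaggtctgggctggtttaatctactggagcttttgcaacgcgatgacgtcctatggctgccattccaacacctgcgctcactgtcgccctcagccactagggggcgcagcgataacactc
They lie at chr8:13159080-13159160 (Lamp1, plus strand), chr8:3500428-3500518 (Mcoln1, plus), chr9:114401010-114401077 (Glb1, plus), chr15:89477425-89477460 (Arsa, minus) and chr11:119267803-119267962 (Gaa, plus). The other members with a match were Gla, Naglu and Sgsh. For all 8, the window begins transcription at the same base as the transcript in the count table. Of the 8 members with CACGTG, 3 rose with anti-LIF, and of the 26 with a window that lacks it, 10 rose. The median log2 fold changes of the 2 sets were 0.38 and 0.42. A match is a string of letters in this window and shows no binding.

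**Figure D1:**
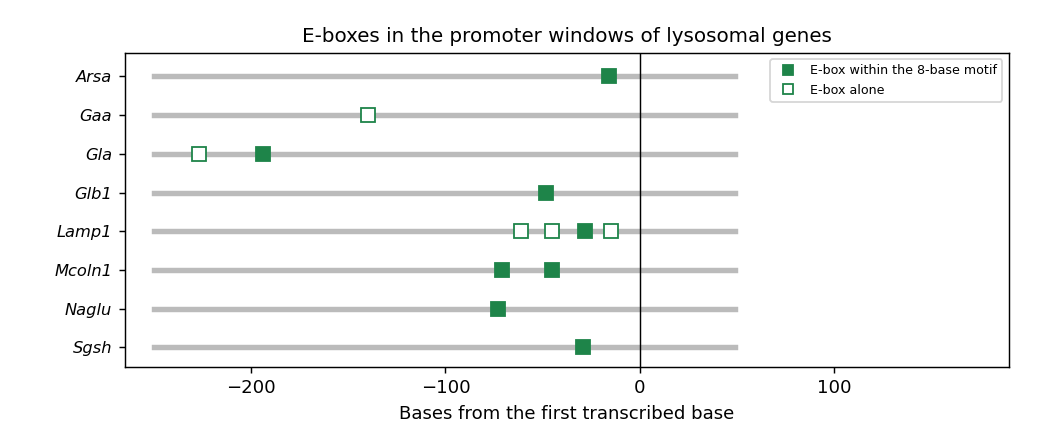
Position of each CACGTG in the promoter windows of the 8 members that hold it. The x axis gives bases from the first transcribed base, grey bars mark the 300-base windows, and filled squares mark matches that are part of GTCACGTG. Lamp1 holds 4 matches and Mcoln1 2 within 71 bases of the start, whereas the single match of Gaa lies 140 bases before it.

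Transcripts of other cell types were present beside those of the sorted epithelium, at levels that differed between the arms. Counts in genes ran from 15135457 to 18972281 per library. Markers of myeloid cells (25 genes, 0 of them at 0 in either arm) summed to 13148 to 17387 CPM (counts scaled to a common library size with TMM, the trimmed mean of M values) with IgG and to 28231 to 53889 CPM with anti-LIF. Of them 18 rose (72.0%), and their median log2 fold change was 0.92. Of all tested genes, 15.7% rose and 16.5% fell. Without Lyz2, the most abundant of the myeloid markers, their sums were 9832 to 12637 and 18211 to 31792 CPM. Epithelial markers (24 genes) summed to 6546 to 7659 and 2520.3 to 4279 CPM, and 21 fell (87.5%, median −0.91). Anti-LIF library KPCL-PCC_227_GA stands apart within its arm, with the highest myeloid sum and the lowest epithelial sum of all 8 libraries. Acinar markers summed to 419 to 2104 and 3251 to 17020.0 CPM, and 18 of 22 tested ones rose (median 3.19, with Amy2a5 at 0 in all libraries). Lymphoid markers summed to 13.3 to 37.4 CPM with IgG and 55.9 to 82.3 CPM with anti-LIF, and 4 of 10 tested ones rose (median 1.32, with Ncr1 at 0 in all libraries). Endothelial markers stayed at or under 45.9 CPM in every library, and the 11 fibroblast markers other than Fn1 summed to 248 to 996 CPM over the 8 libraries. Fn1 itself, also on the fibroblast list, had 17291 to 21593 CPM with IgG and 14896 to 23070 CPM with anti-LIF. In bulk RNA, fewer cells of a type and less RNA per cell cannot be told apart. The part of myeloid, acinar and other cells in the results below was not tested.

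The members span a wide range of levels. Compared per transcript length, in the deposited FPKM (counts divided by transcript length and library total, without TMM), Psap was the most abundant at 1585 with IgG and 1938 FPKM with anti-LIF (means of 4 libraries). It encodes the precursor that is cut into the saposins, small proteins that hand glycolipids to the enzymes. Lamp1 (582 and 777 FPKM) and Grn (386 and 515 FPKM) came next, followed by Acp5 (409 and 341 FPKM) and Laptm5 (277 and 425 FPKM). The least abundant were Idua, at 5.26 and 7.52 FPKM, Smpd1, at 10.6 and 10.2 FPKM, and Arsb, at 7.17 and 14.4 FPKM. Even Idua had at least 437 counts in every library, so low counts limit none of the members.

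**Figure D2:**
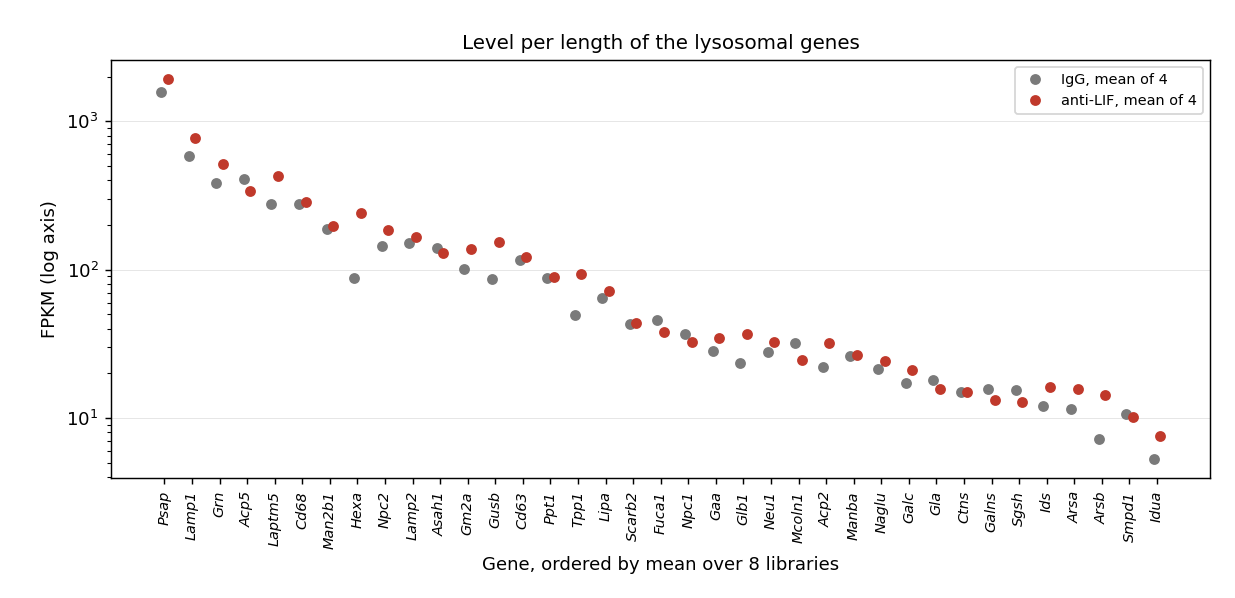
Mean FPKM of each member in the IgG arm (grey) and the anti-LIF arm (red), 4 libraries each, on a log axis, with genes ordered by their mean over the 8 libraries. Psap lies above all others at or above 1585 FPKM in both arms, and the gap between the arms is widest for Hexa (87.9 and 241 FPKM).

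With anti-LIF, 13 of the 37 lysosomal genes rose and 0 fell. The 13 are Hexa, Glb1, Arsa, Gm2a, Gusb, Arsb, Ids, Idua, Gaa, Neu1, Tpp1, Acp2 and Laptm5. They are 12 of the 29 genes for soluble proteins (41.4%) and 1 of the 8 for membrane proteins (12.5%). The gap between these 2 groups depends on the rule. Each anti-LIF library exceeded each IgG library in 14 of the 29 and in 3 of the 8, against 17.6% of tested genes. In edgeR's quasi-likelihood test at an adjusted p under 0.05, 35.1% of the members were thus called higher, against 15.7% of the 14711 tested genes, and 16.5% of the tested genes were called lower. At an unadjusted p under 0.05, 20 members were higher and 1, Mcoln1, was lower, against 21.8% and 23% of tested genes. DESeq2 called 20 higher and 0 lower (of tested genes, 19.5% and 19.3%), and limma-voom 12 and 0 (15.5% and 16.6%). In 17 members each anti-LIF library exceeded each IgG library, against 17.6% of tested genes, and in 0 they all lay below, against 18.2%. The median log2 fold change (anti-LIF minus IgG) over the members was 0.35, against −0.0063 over all tested genes, with 30 of 37 members above 0 and 49.4% of all tested genes. Only Hexa, Arsb, Tpp1 and Gusb lay above the median of the myeloid markers, 0.92, and the lowest member, Mcoln1, lay at −0.23 against a median of −0.91 for the epithelial markers.

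Scaled by library size alone, which lowers the median of all tested genes by 0.16, 10 members rose and 2, Fuca1 and Mcoln1, fell, against 9.72% and 24.2% of tested genes. With upper-quartile scaling 13 rose and Mcoln1 fell, against 14.6% and 17.6%. Without any 1 IgG library 10 members rose, because Gaa, Idua and Neu1 no longer passed, against 13.7%, 9.89%, 12.2% and 11.1% of tested genes in the same order of the libraries as below. Without anti-LIF library KPCL-PCC_227_GA, 14 rose (13.7% of tested genes) and Mcoln1 fell (13.8%), and the median over the members was 0.24. Without library KPCL-PCC_310_GA, library KPCL-PCC_354_GA and library KPCL-PCC_391_GA, 15, 12 and 13 rose, against 14.9%, 11.6% and 13.7% of tested genes. As a share of counts in genes, without TMM, the members held 1.50, 1.57, 1.85 and 1.56% with IgG and 2.12, 1.84, 1.97 and 1.96% with anti-LIF. IgG library KPCL-PCC_345_G thus lay above anti-LIF library KPCL-PCC_310_GA, and the arm means of 1.62% ± 0.158 and 1.97% ± 0.113 (SD, n = 4) did not pass an exact two-sided permutation test (p = 0.0571, where the smallest possible is 0.0286). Psap alone supplied much of the total, and without it the shares were 1.06, 1.08, 1.23 and 1.07% with IgG and 1.59, 1.26, 1.25 and 1.32% with anti-LIF, with no overlap between the arms (exact two-sided permutation p = 0.0286). Adjusted over the 7 shares compared, these p-values were 0.0571 and 0.04. Only the test of all members was planned. The members were chosen with earlier results of these data known, so none of the p-values for their shares is independent support for a rise. The 7 include shares of the myeloid and epithelial markers, which lay at the smallest possible p, so the adjusted 0.04 rests partly on them. Soluble members held 1.23% with IgG and 1.48% with anti-LIF (exact permutation p = 0.0571), and membrane members 0.390% and 0.490% (exact permutation p = 0.0286).

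**Figure D3:**
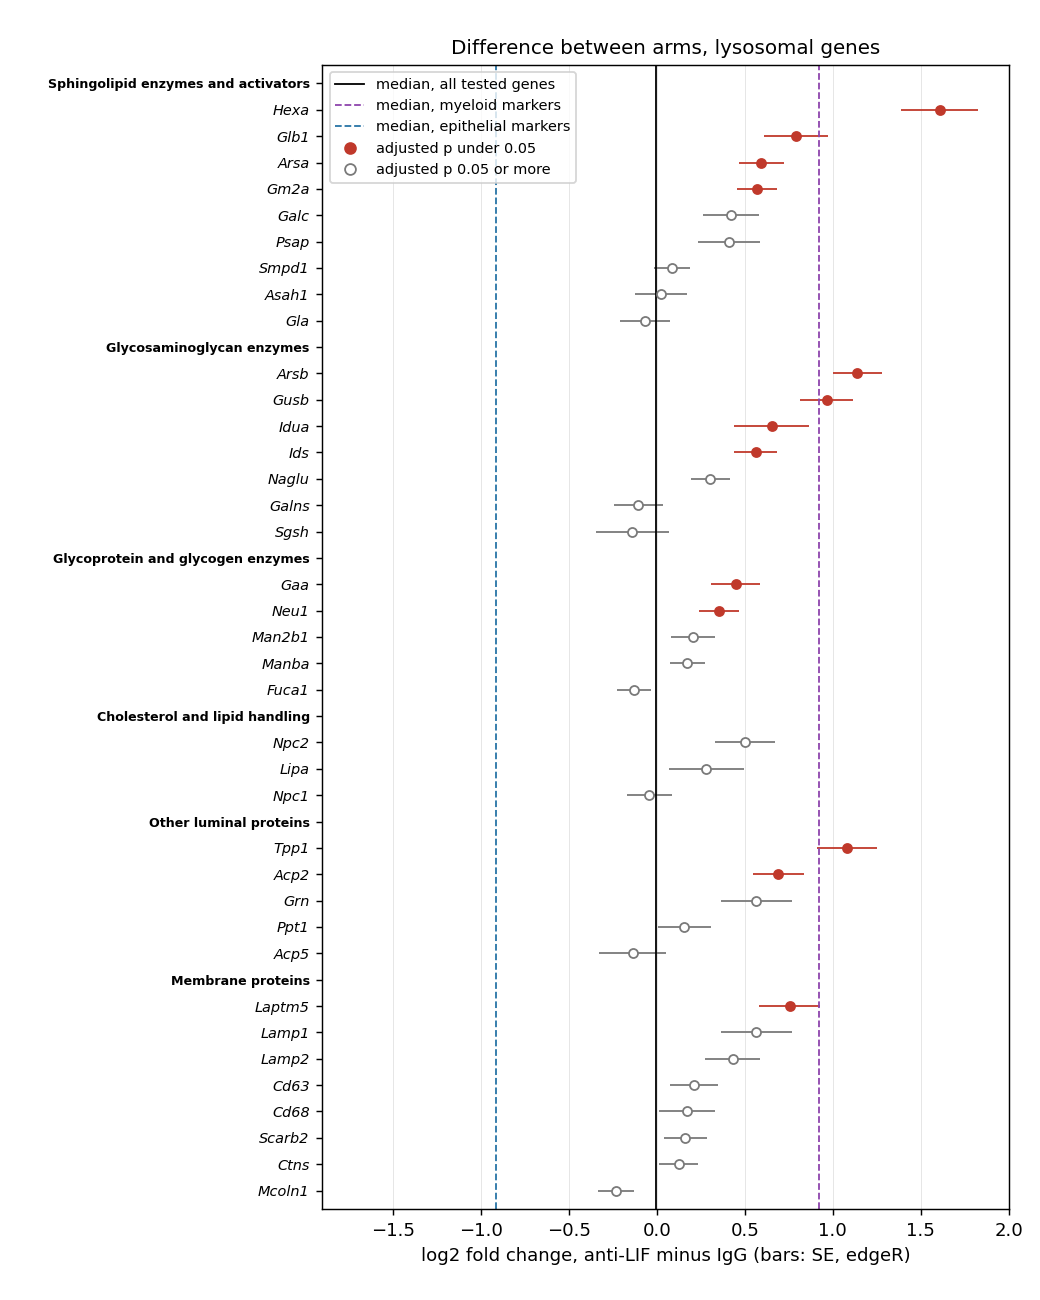
Log2 fold change of each member, anti-LIF minus IgG, with its standard error from edgeR, grouped by role. Filled red points passed an adjusted p of 0.05, and vertical lines mark the medians of all tested genes (−0.0063), of the myeloid markers (0.92) and of the epithelial markers (−0.91). Hexa lies farthest to the right at 1.61, and the 7 members left of 0 are all open.

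Among the 9 genes for the breakdown of sphingolipids, 4 rose (44.4%, against 15.7% of all tested genes, median 0.42). In what follows, values are given in the order library KPCL-PCC_203_G, then library KPCL-PCC_343_G, then library KPCL-PCC_345_G, then library KPCL-PCC_393_G for IgG, and library KPCL-PCC_227_GA, then library KPCL-PCC_310_GA, then library KPCL-PCC_354_GA, then library KPCL-PCC_391_GA for anti-LIF. Hexa (chr9:59539540-59565109 on mm10) encodes the alpha subunit of beta-hexosaminidase A, the enzyme that acts on the ganglioside GM2. Hexa stood at 227.2, 169.9, 224 and 215 CPM with IgG and 944, 479, 605 and 517 CPM with anti-LIF. Every anti-LIF library lay far above every IgG library, and library KPCL-PCC_227_GA was the highest. On the log2 scale the difference was 1.61 ± 0.220 SE (adjusted p = 0.00362), a 3.05-fold rise, with means of 209 ± 26.5 with IgG and 636 ± 212 CPM with anti-LIF (SD, n = 4). Gm2a (chr11:55097985-55113028) encodes the activator that lifts GM2 out of the membrane for that enzyme. Gm2a stood at 478, 512, 600.0 and 495 CPM with IgG and 875, 716, 786 and 720.1 CPM with anti-LIF. The arms did not overlap, with IgG library KPCL-PCC_345_G the highest of its arm. Anti-LIF minus IgG, the log2 difference came to 0.57 ± 0.114 SE (adjusted p = 0.00824). Glb1 (chr9:114401078-114474379) encodes the acid beta-galactosidase that acts a step earlier, on GM1. Glb1 stood at 72.8, 58.5, 65.9 and 66.2 CPM with IgG and 164, 97.5, 92.9 and 101 CPM with anti-LIF. Library KPCL-PCC_227_GA was far above the other 3 of its arm, which still lay above all IgG libraries. In log2 terms the arms differed by 0.79 ± 0.183 SE (adjusted p = 0.0133), or 0.56 (adjusted p = 0.00495) without library KPCL-PCC_227_GA. Arsa (chr15:89472476-89477424), arylsulfatase A, removes sulfate from sulfatides. Arsa stood at 50.2, 40.5, 52.4 and 47.8 CPM with IgG and 89.4, 62.0, 67.7 and 69.2 CPM with anti-LIF. The fitted log2 fold change of Arsa was 0.59 ± 0.130 SE (adjusted p = 0.0109), with no overlap between the arms.

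The other 5 sphingolipid genes did not pass. Psap is by far the most abundant of all members. Psap stood at 4091, 4757, 6032 and 4651 CPM with IgG and 6274, 5928, 7344 and 6422 CPM with anti-LIF. The highest IgG library, KPCL-PCC_345_G, lay above anti-LIF library KPCL-PCC_310_GA. edgeR put the log2 fold change at 0.41 ± 0.174 SE (adjusted p = 0.101). Galc, which removes galactose from myelin lipids, stood at 78.9 ± 6.96 with IgG and 106 ± 25.1 CPM with anti-LIF (log2 fold change 0.42 ± 0.159 SE, adjusted p = 0.0711), and its log2 fold change passed at 0.54 (adjusted p = 0.0288) without anti-LIF library KPCL-PCC_310_GA. That library was the lowest of its arm for Galc, which did not pass with any other single library left out. Smpd1, the acid sphingomyelinase, and Asah1, the acid ceramidase, work in sequence on sphingomyelin. Their log2 fold changes were 0.086 ± 0.101 SE and 0.025 ± 0.148 SE, and by library size alone both were below 0 (−0.081 and −0.14). Gla, the alpha-galactosidase A that acts on globosides, had 48.1 to 72.5 CPM with IgG and 54.6 to 70.1 CPM with anti-LIF (log2 fold change −0.068 ± 0.141 SE, adjusted p = 0.738). The differences of Smpd1, Asah1 and Gla were smaller than their standard errors.

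Of the 7 genes that take apart glycosaminoglycans, the sulfated sugar chains of the matrix and cell surface, 4 rose (57.1%, against 15.7% of all tested genes, median 0.56). Arsb (chr13:93771679-93943016) encodes arylsulfatase B, which removes sulfate from dermatan and chondroitin chains. Arsb stood at 37.3, 31.5, 40.0 and 28.6 CPM with IgG and 89.8, 65.8, 68.7 and 78.4 CPM with anti-LIF. The arms were fully apart. The log2 fold change was 1.14 ± 0.139 SE (adjusted p = 0.00295), a 2.20-fold rise. Gusb (chr5:129989021-130002828) encodes beta-glucuronidase, which cuts the sugar left at the end of the chain. Gusb stood at 284, 202, 273 and 256 CPM with IgG and 622, 473, 453 and 432 CPM with anti-LIF. The lowest anti-LIF library stood well above the highest IgG library, KPCL-PCC_203_G. On the log2 scale the difference was 0.96 ± 0.151 SE (adjusted p = 0.00458), a 1.95-fold rise. Ids (chrX:70343070-70365085), the iduronate sulfatase, acts before the iduronidase Idua on the same sugar. Ids stood at 65.7, 75.7, 85.5 and 61.8 CPM with IgG and 117, 95.3, 115 and 98.4 CPM with anti-LIF. Anti-LIF minus IgG, the log2 difference came to 0.56 ± 0.122 SE (adjusted p = 0.0106), and the arms did not overlap. Idua (chr5:108660331-108685446) had the lowest level of the members. Idua stood at 28.1, 27.6, 32.6 and 23.6 CPM with IgG and 66.1, 34.1, 39.7 and 36.3 CPM with anti-LIF. Library KPCL-PCC_227_GA stood far above the others of its arm. In log2 terms the arms differed by 0.65 ± 0.213 SE (adjusted p = 0.0442), or 0.39 (adjusted p = 0.0385) without library KPCL-PCC_227_GA. The call of Idua was lost without any 1 IgG library (in the same order, adjusted p = 0.0821, 0.0979, 0.0549 and 0.104) or without anti-LIF library KPCL-PCC_354_GA (0.0671).

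The other 3 genes of this group, Naglu, Sgsh and Galns, did not pass. Naglu, which removes N-acetylglucosamine from heparan sulfate, stood at 63.9 ± 5.37 with IgG and 78.9 ± 10.8 CPM with anti-LIF (log2 fold change 0.30 ± 0.112 SE, adjusted p = 0.0656), and passed at 0.38 (adjusted p = 0.0425) without anti-LIF library KPCL-PCC_354_GA. That library was the lowest of its arm for Naglu, which did not pass with any other single library left out. Sgsh, the heparan sulfamidase, ranged from 59.2 to 110.4 CPM with IgG and from 56.0 to 87.7 CPM with anti-LIF. The fitted log2 fold change of Sgsh was −0.14 ± 0.208 SE (adjusted p = 0.633). Galns, the galactosamine sulfatase of keratan sulfate, ranged from 39.7 to 56.4 CPM with IgG and from 34.9 to 49.01 CPM with anti-LIF (log2 fold change −0.10 ± 0.140 SE, adjusted p = 0.595). Removing IgG library KPCL-PCC_345_G turned Sgsh to 0.049, and removing anti-LIF library KPCL-PCC_354_GA turned Galns to 0.0051.

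Of the 5 enzymes for glycoprotein sugars and glycogen, 2 rose by small amounts (40.0%, against 15.7% of all tested genes, median 0.21). Gaa (chr11:119267963-119285458), the acid alpha-glucosidase, frees glucose from glycogen. Gaa stood at 118, 103, 116 and 125 CPM with IgG and 203.4, 156, 129 and 143 CPM with anti-LIF. The lowest anti-LIF library, KPCL-PCC_354_GA, lay just above the highest IgG library, KPCL-PCC_393_G. edgeR put the log2 fold change at 0.45 ± 0.140 SE (adjusted p = 0.0376). Neu1 (chr17:34931253-34937297), the sialidase, removes the terminal sialic acid. Neu1 stood at 118, 133, 136 and 127 CPM with IgG and 202, 162, 149 and 145 CPM with anti-LIF. The arms did not overlap. The log2 fold change was 0.35 ± 0.114 SE (adjusted p = 0.0426). Both calls were lost without any of the 4 IgG libraries or without anti-LIF library KPCL-PCC_310_GA (adjusted p = 0.0575 to 0.101 for Gaa and 0.0656 to 0.0979 for Neu1), and that of Neu1 also without anti-LIF library KPCL-PCC_227_GA (0.0502) or KPCL-PCC_354_GA (0.0529). Scaled by library size alone they came to 0.28 (adjusted p = 0.0805) and 0.19 (adjusted p = 0.107). Man2b1, the alpha-mannosidase and one of the most abundant hydrolase transcripts, stood at 969 ± 108 with IgG and 1117 ± 125 CPM with anti-LIF (log2 fold change 0.21 ± 0.127 SE, adjusted p = 0.241). The log2 fold changes of Manba, the beta-mannosidase, and Fuca1, the fucosidase, were 0.17 and −0.13 (adjusted p = 0.203 and 0.336), but by library size alone Fuca1 passed at −0.29 (adjusted p = 0.0303).

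None of the 3 genes of cholesterol handling passed in edgeR's test, where 1 of them was higher at an unadjusted p under 0.05, and DESeq2 called 1 higher and limma-voom 0. Lipa, the acid lipase, frees cholesterol from its esters, Npc2 picks it up in the lumen, and Npc1 passes it through the membrane. Npc2 stood at 544, 540.2, 606 and 562 CPM with IgG and 1104, 628, 695 and 760.5 CPM with anti-LIF. The arms did not overlap, yet library KPCL-PCC_227_GA widened the spread of its arm. On the log2 scale the difference was 0.50 ± 0.173 SE (adjusted p = 0.0539) for Npc2 (chr12:84754559-84773112). Without library KPCL-PCC_227_GA it was smaller and passed, at 0.31 (adjusted p = 0.0495), and it also passed without library KPCL-PCC_310_GA, at 0.61 (adjusted p = 0.0331). Npc1 stood at 208, 241, 253 and 225 CPM with IgG and 278, 198, 194 and 229 CPM with anti-LIF. The anti-LIF libraries lay on both sides of the IgG range, and only library KPCL-PCC_391_GA fell inside it. Anti-LIF minus IgG, the log2 difference came to −0.043 ± 0.129 SE (adjusted p = 0.822) for Npc1, and its sign turned without IgG library KPCL-PCC_345_G (0.0022) or anti-LIF library KPCL-PCC_310_GA or KPCL-PCC_354_GA (0.025 and 0.030). Lipa ranged from 147 to 287 CPM with IgG and from 239.8 to 349.6 CPM with anti-LIF (log2 fold change 0.28 ± 0.213 SE, adjusted p = 0.335), with IgG library KPCL-PCC_203_G the lowest of the 8.

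The 5 remaining luminal proteins included 2 that rose (40.0%, against 15.7% of all tested genes, median 0.57). Tpp1 (chr7:105744816-105752235) encodes tripeptidyl peptidase, which trims proteins from their amino end. Tpp1 stood at 220.2, 181, 222 and 211 CPM with IgG and 609, 388, 381 and 386 CPM with anti-LIF. The other 3 anti-LIF libraries were close together beside library KPCL-PCC_227_GA, and all were above the IgG arm. In log2 terms the arms differed by 1.08 ± 0.168 SE (adjusted p = 0.00455), a 2.11-fold rise, with means of 209 ± 19.3 with IgG and 441 ± 112 CPM with anti-LIF (SD, n = 4), or 0.89 (adjusted p = 0.00223) without library KPCL-PCC_227_GA. Acp2 (chr2:91202912-91214098) encodes the lysosomal acid phosphatase. Acp2 stood at 136, 105, 135 and 116 CPM with IgG and 253, 182, 166 and 191 CPM with anti-LIF. The fitted log2 fold change of Acp2 was 0.69 ± 0.146 SE (adjusted p = 0.00974), with no overlap between the arms. Grn (chr11:102430322-102436809) encodes progranulin, a secreted protein that is cut into granulins in the lysosome. Grn stood at 1029.9, 946, 1246 and 1081 CPM with IgG and 2301, 1280.1, 1363 and 1425 CPM with anti-LIF. The lowest anti-LIF library, KPCL-PCC_310_GA, lay only slightly above the highest IgG library, KPCL-PCC_345_G. edgeR put the log2 fold change at 0.57 ± 0.203 SE (adjusted p = 0.0605), and without anti-LIF library KPCL-PCC_310_GA it passed at 0.67 (adjusted p = 0.0484). Grn did not pass with any other single library left out. Ppt1, which removes fatty acids from proteins, stood at 263 ± 43.7 with IgG and 293 ± 45.9 CPM with anti-LIF (log2 fold change 0.16 ± 0.152 SE, adjusted p = 0.457). Acp5, the tartrate-resistant phosphatase of osteoclasts and some macrophages, did not pass. Acp5 stood at 574, 770.1, 773 and 561 CPM with IgG and 637, 689.9, 419 and 688 CPM with anti-LIF. The arms overlapped, with anti-LIF library KPCL-PCC_354_GA the lowest. The log2 fold change was −0.14 ± 0.189 SE (adjusted p = 0.603), and without that library it came to 0.012.

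Of the 8 membrane proteins, 1 rose in edgeR's test (12.5%, close to the 15.7% of all tested genes, median 0.19). DESeq2 called 3 of the 8 higher and limma-voom 1, against 19.5% and 15.5% of tested genes. In 3 of the 8 each anti-LIF library exceeded each IgG library, against 17.6%. Laptm5 (chr4:130913334-130936148) is a lysosomal membrane protein made mainly in blood cells, where it carries receptors to the lysosome. Laptm5 stood at 698, 819, 969 and 706 CPM with IgG and 1756, 1183, 1244 and 1205 CPM with anti-LIF. Each anti-LIF library exceeded each IgG library. On the log2 scale the difference was 0.76 ± 0.172 SE (adjusted p = 0.0128), or 0.60 (adjusted p = 0.0126) without library KPCL-PCC_227_GA. Lamp1 (chr8:13159161-13175338) and Lamp2 (chrX:38419503-38456460) encode the heavily glycosylated proteins that line the lysosome, and Lamp2 also serves in autophagy. Lamp1 stood at 1529.9, 1461, 1692 and 1527 CPM with IgG and 3342, 1885, 1964 and 2003 CPM with anti-LIF. Lamp2 stood at 412, 434, 459.7 and 421 CPM with IgG and 789.6, 489.9, 537 and 513 CPM with anti-LIF. For both, the arms did not overlap and library KPCL-PCC_227_GA was far above the rest. The log2 fold changes of 0.57 ± 0.200 SE and 0.43 ± 0.156 SE did not pass (adjusted p = 0.0576 and 0.0624). Without library KPCL-PCC_227_GA Lamp1 passed with a smaller difference, 0.33 (adjusted p = 0.0358), and without library KPCL-PCC_310_GA Lamp2 passed at 0.52 (adjusted p = 0.0479). Library KPCL-PCC_310_GA was the lowest of its arm for Lamp2. Neither gene passed with any other single library left out.

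Cd68 and Cd63 are widely used as markers of lysosomes and late endosomes, Cd68 above all in macrophages. Cd68 stood at 324, 402, 513 and 427 CPM with IgG and 564, 462, 403 and 448 CPM with anti-LIF. Cd63 stood at 119, 117, 126 and 134 CPM with IgG and 176, 149.6, 108 and 141 CPM with anti-LIF. The arms overlapped for both. Anti-LIF minus IgG, the log2 difference came to 0.17 ± 0.158 SE (adjusted p = 0.429) for Cd68 (chr11:69664213-69666170) and 0.21 ± 0.137 SE (adjusted p = 0.257) for Cd63 (chr10:128909866-128912818). In the same libraries the macrophage receptor genes Csf1r and Adgre1 rose 2.91-fold and 2.65-fold, and the pan-leukocyte gene Ptprc 1.82-fold. Not all myeloid markers rose: of the 25, 18 rose and 7 did not pass, and 1 had a log2 fold change below 0. Epcam, the gene of the sort marker, was at 479 to 664 CPM with IgG and 194 to 353 CPM with anti-LIF. Mcoln1, the calcium channel through which lysosomes signal, had the lowest log2 fold change of all members. Mcoln1 stood at 70.8, 80.3, 76.5 and 77.1 CPM with IgG and 77.5, 61.0, 57.9 and 62.7 CPM with anti-LIF. Only library KPCL-PCC_227_GA reached the range of the IgG arm. In log2 terms the arms differed by −0.23 ± 0.102 SE (adjusted p = 0.107), but without library KPCL-PCC_227_GA it passed as lower at −0.33 (adjusted p = 0.0169), as it did by library size alone (−0.40) and with upper-quartile scaling (−0.27). Ctns, the cystine exporter, and Scarb2, which carries glucocerebrosidase to the lysosome, had log2 fold changes of 0.12 and 0.16 (adjusted p = 0.429 and 0.326), and by library size alone −0.044 and −0.0071.

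**Figure D4:**
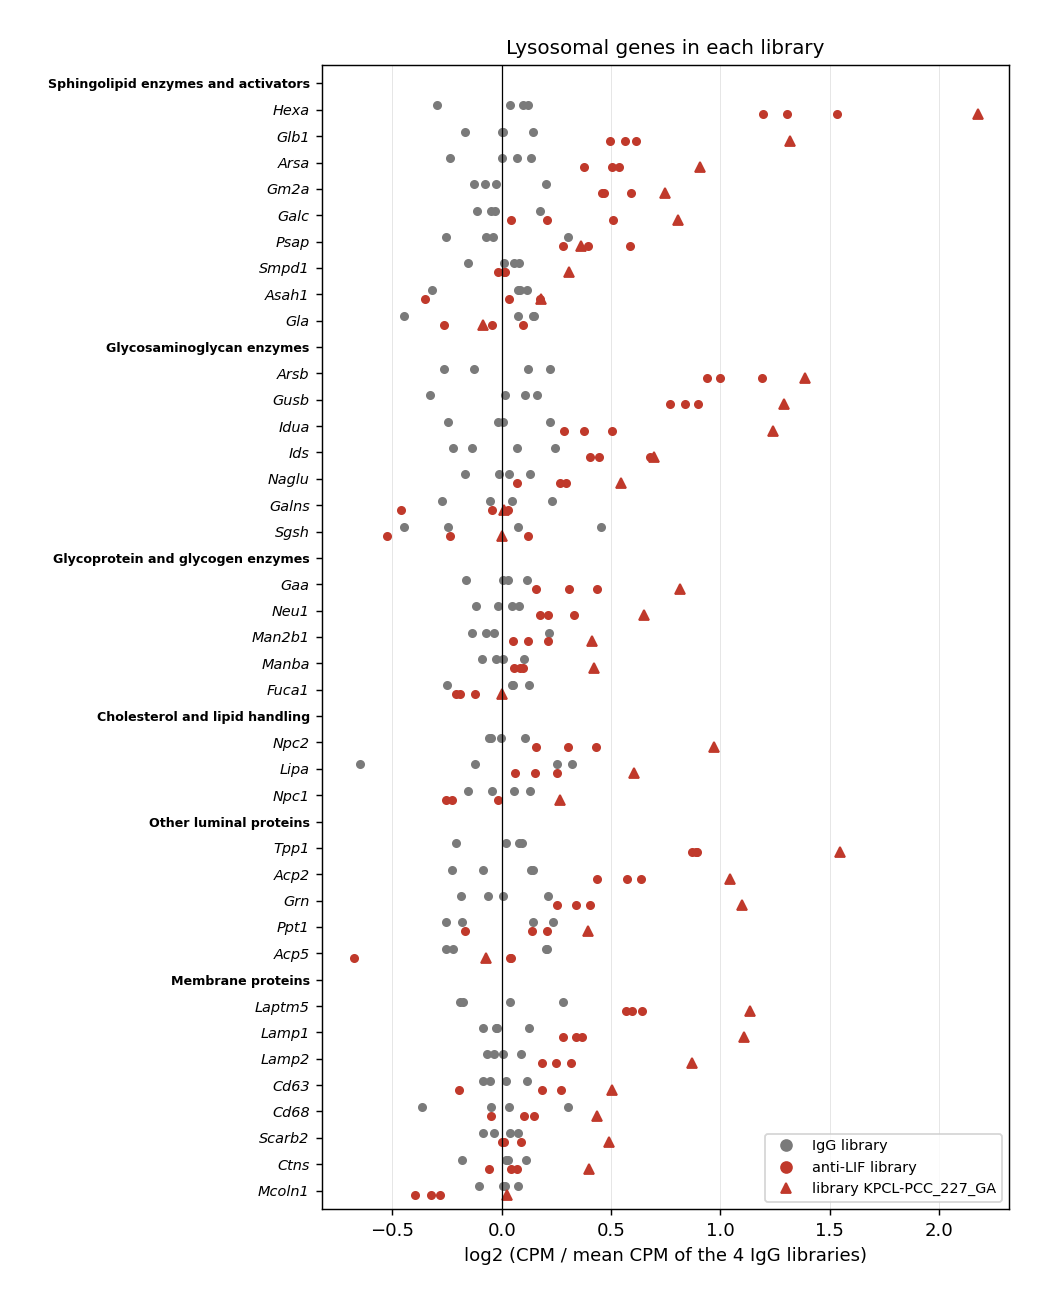
Every member in every library, as log2 of its CPM over the mean CPM of the 4 IgG libraries, grouped by role. Grey points are IgG libraries, red points anti-LIF libraries, and the red triangle is anti-LIF library KPCL-PCC_227_GA, which is the highest of its arm in 32 of 37 members.

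Most members were highest in the same library of each arm. Anti-LIF library KPCL-PCC_227_GA was the highest of its arm in 32 of the 37 members (86.5%), against 36.0% of all tested genes. The exceptions were Psap, Gla, Galns, Sgsh and Acp5. In the IgG arm, library KPCL-PCC_345_G was the highest in 23 members (62.2%), against 24.5% of all tested genes. The same libraries lead the myeloid markers, whose sum was 53889 CPM in anti-LIF library KPCL-PCC_227_GA, against 28231, 29231 and 31737 CPM in the others of the arm. In the IgG arm it was 17387 CPM in library KPCL-PCC_345_G, against 15645, 13148 and 14061 CPM. Epithelial markers were lowest in the same 2 libraries of their arms, at 2520.3 and 6546 CPM. The part of these cells in the lysosomal values was not tested. Without library KPCL-PCC_227_GA, 12 of the 13 members that rose still passed, all but Neu1.

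**Figure D5:**
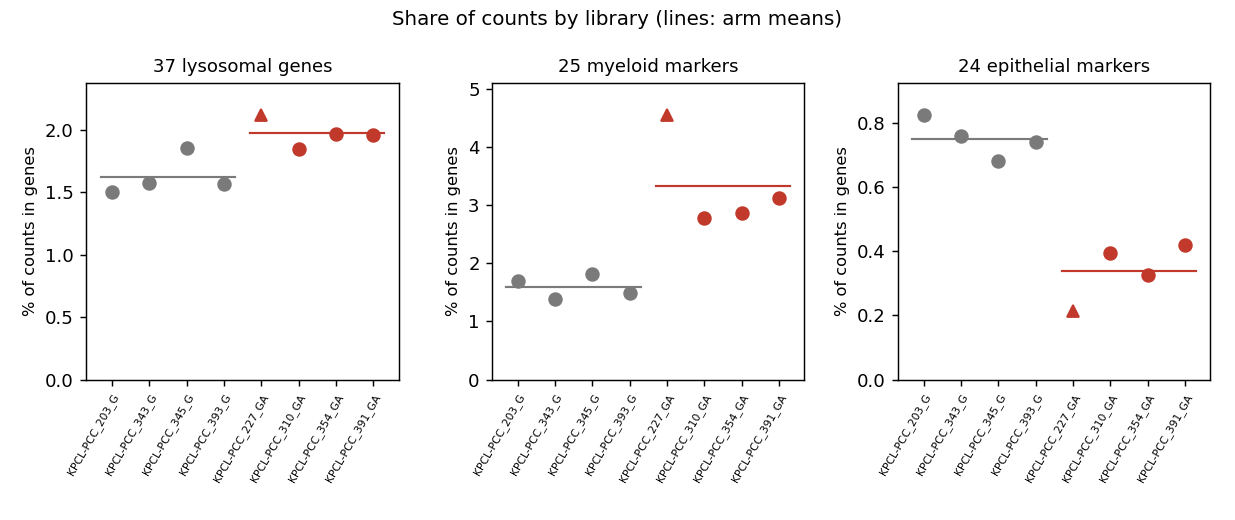
Share of the counts in genes held by the 37 members, the 25 myeloid markers and the 24 epithelial markers in each of the 8 libraries, with arm means as lines and anti-LIF library KPCL-PCC_227_GA as a triangle. The members went from 1.62% to 1.97% of counts, the myeloid markers from 1.59% to 3.33%, and the epithelial markers from 0.752% to 0.339%.

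Beyond the 37 members, 108 other genes of the lysosome and of its control were tested, and 34 rose and 9 fell (31.5% and 8.33%, median 0.17). Of all tested genes, 15.7% rose and 16.5% fell. Counts of these smaller lists often moved when 1 library was left out, and the libraries that moved a count by over 1.5 times are named beside it. The share of all tested genes that rose moved as well. It was 13.7%, 9.89%, 12.2% and 11.1% without each IgG library, in the order used above. Without each anti-LIF library it was 13.7%, 14.9%, 11.6% and 13.7%. Of 26 further hydrolases and enzymes of the lumen, 12 rose and 1 fell (46.2% and 3.85%, median 0.37), and 7 rose without IgG library KPCL-PCC_343_G or KPCL-PCC_393_G. Plbd1, a phospholipase-like protein, had the lowest p of the list. Plbd1 stood at 99.0, 74.0, 116 and 98.3 CPM with IgG and 312, 241, 407 and 286 CPM with anti-LIF. It rose 3.22-fold (log2 fold change 1.69 ± 0.186 SE, adjusted p = 0.00262), with no overlap between the arms. Rnaset2b, a lysosomal RNase, and Creg1, a small lysosomal glycoprotein, rose 2.19-fold and 1.72-fold, and reads of Rnaset2b can be shared with its close copy. The 1 that fell was Hyal1, a hyaluronidase, with 12.3 to 18.9 CPM with IgG and 8.88 to 10.1 CPM with anti-LIF (log2 fold change −0.76 ± 0.150 SE, adjusted p = 0.00789). Of 19 tested subunits and partners of the proton pump that acidifies the lysosome, 3 rose and 1 fell (median 0.097). The 15.8% that rose is close to the 15.7% of all tested genes, and 1 rose without any of IgG libraries KPCL-PCC_203_G, KPCL-PCC_345_G and KPCL-PCC_393_G or anti-LIF libraries KPCL-PCC_310_GA and KPCL-PCC_391_GA. Atp6v0b, Atp6ap1 and Tcirg1 rose 1.60-fold, 1.27-fold and 1.29-fold. Atp6v0d2, a pump subunit of osteoclasts and macrophages, was the one that fell. Atp6v0d2 stood at 132, 288, 269 and 243 CPM with IgG and 53.8, 73.2, 27.5 and 66.5 CPM with anti-LIF. The arms did not overlap, and the fall was 4.22-fold (log2 fold change −2.08 ± 0.333 SE, adjusted p = 0.00469).

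Of 19 other tested membrane proteins, 6 rose and 0 fell in edgeR's test, where 1 was lower at an unadjusted p under 0.05, and DESeq2 and limma-voom gave 6 and 0 as well (median 0.21). The 6 are 31.6% of the list, against 15.7% of all tested genes in edgeR's test. Without IgG library KPCL-PCC_203_G or anti-LIF library KPCL-PCC_391_GA 3 rose, and without IgG library KPCL-PCC_343_G or KPCL-PCC_393_G 2 rose. The nucleoside transporter Slc29a3 rose 2.04-fold, the calcium channel Tpcn1 1.33-fold and Cln3 1.36-fold. Of 13 genes that sort enzymes to the lysosome, 5 rose and 2 fell (38.5% and 15.4%, median 0.18), and 3 rose without IgG library KPCL-PCC_203_G, KPCL-PCC_343_G or KPCL-PCC_393_G. The 15.4% that fell is close to the 16.5% of all tested genes. Nagpa, which uncovers the mannose phosphate tag, rose 1.68-fold, and the adaptors Gga3 and Ap3b1 rose 1.48-fold and 1.39-fold. The 2 that fell encode sorting receptors. Sort1 stood at 198, 309, 301 and 243 CPM with IgG and 100.5, 130.4, 66.4 and 139.9 CPM with anti-LIF. Sort1, which encodes sortilin, fell 2.402-fold (log2 fold change −1.26 ± 0.239 SE, adjusted p = 0.00694), and Igf2r, the large mannose phosphate receptor, fell 1.22-fold (log2 fold change −0.29 ± 0.0960 SE, adjusted p = 0.0458). The call of Igf2r was lost without any 1 library other than anti-LIF library KPCL-PCC_310_GA, while that of Sort1 held each time.

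Among 18 regulators of lysosomal genes and of growth signalling on the lysosome, 5 rose and 2 fell (median 0.14). These are 27.8% and 11.1%, against 15.7% and 16.5% of all tested genes. Without IgG library KPCL-PCC_393_G or anti-LIF library KPCL-PCC_227_GA or KPCL-PCC_391_GA 3 rose. Without IgG library KPCL-PCC_343_G 2 rose and 1 fell, and without anti-LIF library KPCL-PCC_354_GA 2 rose and 0 fell. The gene Tfeb did not pass. Tfeb stood at 34.2, 35.9, 34.8 and 23.3 CPM with IgG and 34.5, 39.4, 37.4 and 34.9 CPM with anti-LIF. The arms overlapped (log2 fold change 0.19 ± 0.137 SE, adjusted p = 0.316). Tfe3 rose 1.44-fold, with 81.1 to 109 CPM with IgG and 125 to 185 CPM with anti-LIF (log2 fold change 0.53 ± 0.154 SE, adjusted p = 0.0307), though not without IgG library KPCL-PCC_343_G or KPCL-PCC_345_G or anti-LIF library KPCL-PCC_354_GA (adjusted p = 0.0808, 0.0708 and 0.0521) nor by library size alone. Mitf had a log2 fold change of 0.031 (adjusted p = 0.916), whose sign turned in 5 of the alternatives. Lamtor2 and Lamtor5, parts of the scaffold that holds the growth kinase mTORC1 on the lysosome, rose 1.36-fold and 1.36-fold, while its adaptor Rptor and the gene Fnip2 fell 1.29-fold and 1.32-fold. Of 13 autophagy and fusion genes, 3 rose and 3 fell (23.1% each, against 15.7% and 16.5% of all tested genes, median 0.16). Without IgG library KPCL-PCC_343_G 1 rose and 1 fell, without anti-LIF library KPCL-PCC_310_GA 5 rose and 1 fell, and 1 fell also without IgG library KPCL-PCC_345_G or KPCL-PCC_393_G or anti-LIF library KPCL-PCC_354_GA. Uvrag, Gabarap and Vps33a rose 1.41-fold, 1.38-fold and 1.30-fold, and Wipi1, Vps11 and Atg9a fell 1.76-fold, 1.26-fold and 1.198-fold. By library size alone, 16 of the 108 rose and 14 fell, against 9.72% and 24.2% of all tested genes. With 1 library left out at a time, 17 to 33 of the 108 rose and 4 to 8 fell. Without IgG library KPCL-PCC_203_G, library KPCL-PCC_343_G or library KPCL-PCC_393_G, 21, 17 and 18 rose, against 13.7%, 9.89% and 11.1% of all tested genes. Without IgG library KPCL-PCC_343_G and without anti-LIF library KPCL-PCC_354_GA, 5 and 4 fell.

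The strand setting of the counts was not given in the sources used here, so reads from genes that overlap a member on the other strand may be included. In the GENCODE M21 annotation of mm10, 13 of the 37 members share exon bases with another gene, 12 of them with a gene on the opposite strand. Among the members that rose, Acp2 shares 652 bases with Ddb2, Arsa 690 with an antisense RNA and Hexa 255 with Tmem202. Arsb, whose transcript is 3979 bases long, shares 1948 with the non-coding Gm26527 and 463 with the non-coding Gm47210. Idua shares 124 with Dgkq and 141 with Slc26a1, and Glb1 165 on its own strand with Tmppe. In the IgG arm, Dgkq had 40.0 CPM, more than the 28.0 CPM of Idua, and Tmppe had 54.0 CPM beside the 65.9 CPM of Glb1. Ddb2 had 31.6 CPM beside the 123 CPM of Acp2, and Slc26a1, Tmem202 and the antisense RNA each had under 2 CPM. With anti-LIF the log2 fold changes of Dgkq, Tmppe and Ddb2 were −0.039, 0.045 and 0.22. No value is given here for Gm26527 or Gm47210. The division of reads between these genes is uncertain.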

How the data were processed

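Per the submitters' processing notes, the authors used FastQC 0.11.2, STAR 2.4.0k, HOMER, edgeR 3.6.8 and genome build mm10, and none of their own comparisons was used here. Per the file headers, HOMER's analyzeRepeats.pl counted reads in exons and kept 1 transcript for each gene, with no strand option written there. The deposited count table holds raw counts (whole numbers), and the deposited FPKM table holds FPKM, which matched count over length and library total within 0.0005 FPKM in 21000 shared transcripts. For 30 of 37 members both tables use the same transcript. There were 0 unused value columns. HOMER's version, the annotation release and the strand setting were not given in the sources used here.

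Each library is 1 mouse, grouped by the labels' antibody. No libraries were duplicates (mean chi-square per gene 19.3 to 97.5 between libraries of an arm). Counts were tested with edgeR 4.0.16 (filterByExpr defaults, TMM, quasi-likelihood test, 2 arms, no covariate, R 4.3.3), with Benjamini-Hochberg adjustment over all 14711 genes and a threshold of 0.05. CPM use TMM-scaled library sizes. Levels between genes were compared by the authors' deposited FPKM. CPM of different genes are set side by side only for genes that overlap, where reads are shared, and for 1 ratio followed across libraries. Shares of counts were compared by exact permutation over 70 assignments. Alternatives were other scalings and filters, DESeq2 1.42.0, limma-voom (limma 3.58.1), robust dispersion, and each library left out. Scripts were tested on simulated data. Values in every library are given for members past the threshold, the 5 most abundant, and Lamp1, Lamp2, Laptm5, Cd63, Cd68, Grn, Npc1, Npc2 and Psap. From other lysosome lists up to 3 genes a direction with the lowest p are named, with Tfeb, Tfe3 and Mitf. Mcoln1 was given in every library after its values were seen. Some alleles of the mice and some genes are not reported here. The members and lists were chosen with earlier results of these data known. Promoter sequences are RefSeq's (GRCm38.p6).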

Additional observations from a re-analysis of the deposited data

Results flagged for a closer look

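In each arm of 4, a library was marked when its gap to the nearest other library exceeded 0.829 of the arm's range (Dixon's 95% critical value). Chance marks about 1 in 20 independent arms. The 78 arms checked here draw on the same 8 libraries, so their share cannot be set against that rate. Of them 12 (15.4%) were marked, 9 of these for anti-LIF library KPCL-PCC_227_GA. Library KPCL-PCC_227_GA was high for Glb1 (164 CPM), Smpd1 (37.7 CPM), Manba (153 CPM), Tpp1 (609 CPM), Grn (2301 CPM), Lamp1 (3342 CPM), Lamp2 (789.6 CPM), Laptm5 (1756 CPM) and Scarb2 (344 CPM). The same library has the highest sum of myeloid markers, 53889 CPM, whose part in these values was not tested. Without it, Glb1, Tpp1 and Laptm5 still rose, Lamp1 passed at 0.33 (adjusted p = 0.0358), and Smpd1, Manba, Grn, Lamp2 and Scarb2 did not pass.

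In the IgG arm, library KPCL-PCC_203_G was low for Gla (48.1 CPM) and Asah1 (302 CPM). Without library KPCL-PCC_203_G the log2 fold change of Asah1 was −0.067 (adjusted p = 0.749) and that of Gla −0.19 (adjusted p = 0.175), and neither passed with it or without it. IgG library KPCL-PCC_345_G was high for the share of counts held by the members other than Psap, at 1.23%.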

How the results depend on the processing

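The 10 members Hexa, Glb1, Arsa, Gm2a, Gusb, Arsb, Ids, Tpp1, Acp2 and Laptm5 rose under each of the 16 alternatives run, with adjusted p at most 0.0431. Gaa lost its call in 6 alternatives, Idua in 7 and Neu1 in 9, with values above 0 throughout. The number of members higher was 20 with DESeq2 and otherwise 10 to 15. The 7 added by DESeq2 were Galc, Grn, Lamp1, Lamp2, Naglu, Npc2 and Psap, and DESeq2 called 19.5% of tested genes higher. The number lower was 1 with upper-quartile scaling and 2 by library size alone, and with each library left out 0 to 1, the 1 being Mcoln1 without anti-LIF library KPCL-PCC_227_GA. Among the 108 other lysosome genes, 16 were higher and 14 lower by library size alone. With each library left out the numbers ran from 17 to 33 higher and from 4 to 8 lower. Library size alone lowered the median of all tested genes by 0.16, and the share of higher calls among all genes went from 15.7% to 9.72% and of lower calls from 16.5% to 24.2%.

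The median log2 fold change of the members stayed above 0, from 0.19 by library size alone to 0.41. The members' share of counts differed by 0.348 percentage points. It was 0.308 points with the library total of the file headers as denominator (exact permutation p = 0.0286) and 0.299 to 0.425 points with each library left out, where 4 against 3 cannot give a p below 0.0571. The signs that turned belong to genes that passed neither way. By library size alone these were Asah1 (−0.14), Smpd1 (−0.081), Ppt1 (−0.0079), Ctns (−0.044), Scarb2 (−0.0071) and Mitf (−0.14), and with upper-quartile scaling Asah1 (−0.0059) and Mitf (−0.0026). With each library left out in turn, the log2 fold change ran from −0.067 to 0.14 for Asah1 (below 0 without IgG library KPCL-PCC_203_G or anti-LIF library KPCL-PCC_227_GA or KPCL-PCC_391_GA), from −0.081 to 0.17 for Mitf (below 0 without IgG library KPCL-PCC_203_G or KPCL-PCC_393_G or anti-LIF library KPCL-PCC_227_GA), from −0.26 to 0.049 for Sgsh (above 0 without IgG library KPCL-PCC_345_G), from −0.16 to 0.030 for Npc1 (above 0 without IgG library KPCL-PCC_345_G or anti-LIF library KPCL-PCC_310_GA or KPCL-PCC_354_GA), from −0.19 to 0.00045 for Gla (above 0 without anti-LIF library KPCL-PCC_310_GA), and from −0.19 to 0.0051 for Galns and −0.21 to 0.012 for Acp5 (both above 0 without anti-LIF library KPCL-PCC_354_GA). The cause was not tested. No paired analysis was possible because the arms share no mouse numbers, so no replicate block could be fitted. With at least 437 counts for each member in each library, depth is not the limit here, and the precision is set by the spread between the 4 mice of an arm.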

Other observations

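Cd68 and Csf1r are both used as macrophage genes. Csf1r stood at 1017, 775, 1106 and 835 CPM with IgG and 4019, 1968, 2386 and 2483 CPM with anti-LIF. The ratio of Cd68 to Csf1r, in CPM, was 0.319, 0.519, 0.464 and 0.511 with IgG and 0.140, 0.235, 0.169 and 0.180 with anti-LIF. All 4 anti-LIF libraries lay below all 4 IgG libraries. Csf1r is 1 of the 18 myeloid markers that rose, and 7 of the 25 did not pass, so it does not stand for all of them. This ratio was chosen after its values were seen and was not tested.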
